A study of Mus musculus with 6 samples.

Results

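The genes of classical MHC class I and its peptide loading were followed through 8 members: the activator Nlrc5, the heavy chains H2-K1 and H2-D1, the light chain B2m, the transporter genes Tap1 and Tap2, the tapasin gene Tapbp and the trimming peptidase gene Erap1. They were chosen by gene symbol in the platform annotation, which gave 13 probes of the 25697 on the array, for 8 of the 16593 genes named there. Messenger RNA was read on 6 single-colour Illumina mouse arrays from thymocytes at the CD4 and CD8 double positive stage, before selection. The thymocytes came from AND.Rag1-/-H-2d mice: they carry the AND T cell receptor transgene, lack Rag1 and so make no other receptor, and have the H-2d haplotype. Cells were held for 7 h on plate-bound I-Ek Ig dimers loaded with MCC (labelled as giving negative selection signals), gp250 (positive selection signals) or Hb (non-selecting), on 2 arrays each. Every group therefore saw an I-Ek dimer, and Hb is the baseline here, not resting cells. Nothing in the labels ties the 2 arrays of a ligand to different mice or dishes; the spread that enters each p-value is that between these samples and could be purely technical.

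A class I molecule is a heavy chain paired with beta-2-microglobulin, and it leaves the endoplasmic reticulum once it has bound a peptide. The proteasome cuts proteins into peptides, TAP, a dimer of the Tap1 and Tap2 products, pumps them into the endoplasmic reticulum, Erap1 trims them there, and tapasin with calreticulin and Pdia3 (ERp57) holds the empty class I molecule at TAP until a peptide fits. NLRC5 acts in the nucleus, where it joins RFX, CREB or ATF and NF-Y proteins on a composite element of class I promoters. Double positive thymocytes are known for low class I on their surface compared with mature T cells.

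The promoters of both heavy chains, of B2m and of Tap1 are shown because the activator Nlrc5 was detected only with MCC while these 4 genes did not pass the test. Of the 4, H2-D1 was detected on no MCC array, and a link between Nlrc5 and these genes was not tested. The promoters are RefSeq windows of 300 bases, from 250 bases before to 50 after the annotated start, on build GRCm38.p6. Its reference strain is C57BL/6J, and each window reads in the direction of transcription. The sequence of the H-2d mice was not used here and may differ. Capitals mark matches, on either strand, to GGGATTCCC (the core of the kappaB element of class I promoters), GAAANNGAA and GAANNGAAA (interferon response elements of wide and narrow spacing), ATTGG (the inverted CCAAT box) and TGACG (a CRE core). The H2-K1 window lies at chr17:34000298-34000597 on the minus strand, the H2-D1 window at chr17:35262844-35263143 on the plus strand, the B2m window at chr2:122147437-122147736 on the plus strand and the Tap1 window at chr17:34187306-34187605 on the plus strand.
H2-K1: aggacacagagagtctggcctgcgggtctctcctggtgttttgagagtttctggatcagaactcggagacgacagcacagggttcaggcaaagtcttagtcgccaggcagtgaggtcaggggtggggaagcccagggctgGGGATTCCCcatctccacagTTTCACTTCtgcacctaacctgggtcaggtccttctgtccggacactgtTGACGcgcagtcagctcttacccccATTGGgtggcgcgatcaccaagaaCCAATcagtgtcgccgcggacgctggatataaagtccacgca
H2-D1: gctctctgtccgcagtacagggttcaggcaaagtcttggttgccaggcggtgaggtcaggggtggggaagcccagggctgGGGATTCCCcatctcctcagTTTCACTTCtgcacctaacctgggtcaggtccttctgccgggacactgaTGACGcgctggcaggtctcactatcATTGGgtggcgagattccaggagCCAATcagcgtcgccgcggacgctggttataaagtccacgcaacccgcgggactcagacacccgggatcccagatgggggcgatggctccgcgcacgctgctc
B2m: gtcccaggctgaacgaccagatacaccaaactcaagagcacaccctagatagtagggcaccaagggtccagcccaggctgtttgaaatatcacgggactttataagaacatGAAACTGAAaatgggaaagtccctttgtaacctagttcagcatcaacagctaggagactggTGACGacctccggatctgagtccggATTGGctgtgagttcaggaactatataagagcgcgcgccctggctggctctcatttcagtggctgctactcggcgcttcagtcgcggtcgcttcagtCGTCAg
Tap1: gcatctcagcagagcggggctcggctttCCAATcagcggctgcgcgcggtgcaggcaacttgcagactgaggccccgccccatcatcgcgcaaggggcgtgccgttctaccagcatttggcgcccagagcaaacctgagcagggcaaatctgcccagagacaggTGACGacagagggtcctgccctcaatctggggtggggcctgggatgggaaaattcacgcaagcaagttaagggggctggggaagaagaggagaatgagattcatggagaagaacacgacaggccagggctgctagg

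The kappaB core GGGATTCCC was in the windows of H2-K1 and H2-D1 and in 116 of all 32851 mouse windows (0.353%). The same 2 windows had the narrow interferon element GAANNGAAA, which 7.52% of all windows had. B2m had the wide element GAAANNGAA, as did Erap1 in 2 overlapping copies, and 8.56% of all windows had it. ATTGG was in 37.4% and TGACG in 20.8% of all windows. TGACG followed by 20 bases and then ATTGG was found in the windows of H2-K1, H2-D1 and B2m, in 31 of 32851 windows in all (0.0944%, 27 gene symbols). This spacing was noticed after the windows were read. It was absent from the windows of Tap1, Tapbp and Erap1, and no window of Tap2 or Nlrc5 was used here. Of the 17 other listed class I and class I-like genes with a window, only H2-M3, which presents formylated peptides, had this spacing. The H2-K1 and H2-D1 windows were 89.5% identical over 239 aligned positions, against 48.1% to 56.6% for every other pair of members. A match describes these letters and is not evidence of a factor at the site.

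**Figure D1:**
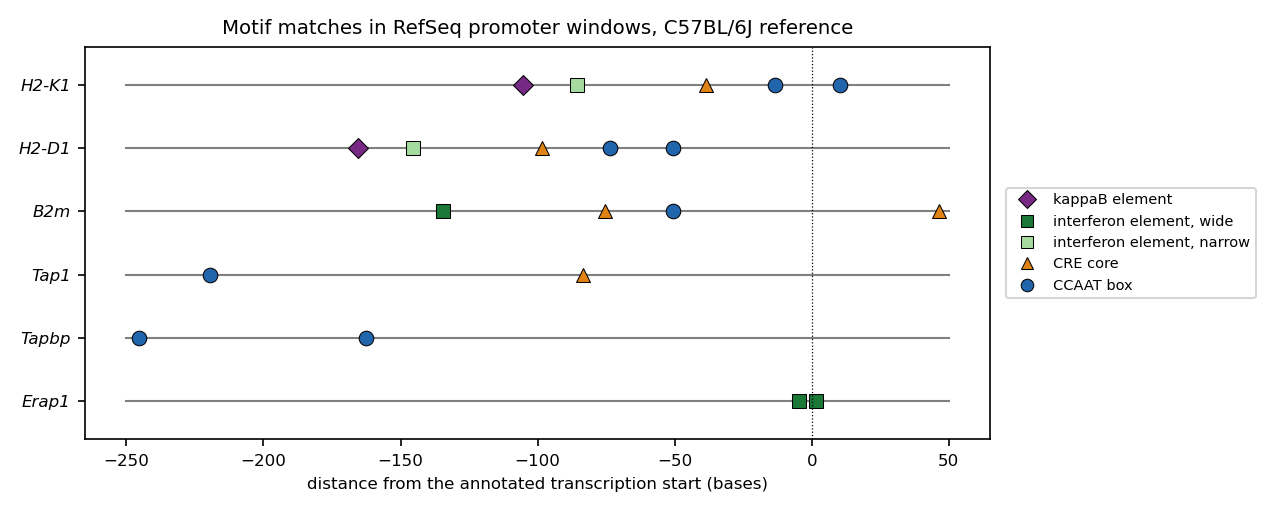
Motif matches along the promoter windows of the 6 members that had one, by distance in bases from the annotated transcription start (dotted line). Each marker is the centre of one match on either strand, and the CRE core and the next CCAAT box lie at the same spacing in H2-K1, H2-D1 and B2m.

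MCC arrays were brighter (mean deposited signal 582 to 613) than gp250 arrays (445 to 482) or Hb arrays (470 to 488), and between 10519 and 11603 probes were detected on each. Precision is limited by how few arrays there are. The receptor signal genes Egr2, Itm2a, Cd5, Egr1 and Cd69 rose with MCC against Hb, by 4.28 to 5.78 on the log2 scale, and none of them passed the test with gp250 against Hb. Nr4a1, listed with them and named after its values were seen, was not detected on any array. Of 13 thymocyte markers 10 were tested, and 7 fell and 1 rose with MCC. Among the 7, Cd4, Rag2 and Ptcra entered the test through gp250 and Hb arrays alone, so a fall was built into their selection. Cd3e, Cd3d and Cd3g were detected on every array, Cd4 on no MCC array and the Cd8a probe on no array. Summed over the 10 tested thymocyte markers, the MCC arrays read 89389 to 92072, the gp250 arrays 139633 to 140598 and the Hb arrays 137023 to 144442. Summed over the 2 tested B cell markers, they read 263 to 265 (MCC), 1012 to 1140 (gp250) and 1095 to 1116 (Hb). Of 31 markers of other cell types 23 had a named probe and 7 were tested, of which 2 rose (Krt8 and Nkg7) and 5 fell (Cd79a, Cd79b, Pecam1, Hba-a1 and Il18r1). Cd79a and Il18r1 were detected on no MCC array, so their falls too were built into their selection. Over all tested genes, 55.1% passed the test with MCC against Hb, 26.2% higher and 28.8% lower. None of the 6 myeloid and dendritic genes with a named probe was detected on more than 1 array, so none was tested. In these bulk samples fewer cells of a type and less RNA per cell cannot be told apart, and the part of cell make-up in the results below was not tested.

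Differences below are on the log2 scale after quantile normalization, with standard errors from limma, 2 arrays per ligand, and p-values adjusted by Benjamini-Hochberg over all 11942 tested probes. A probe was tested if detected (detection p under 0.05) on at least 2 of the 6 arrays, and a difference passed at an adjusted p under 0.05. Of the 13 member probes, 8 were tested, for 7 of the 8 genes, and 5 were not: the second H2-K1 probe, the third B2m probe, the second Tapbp probe and both Erap1 probes. Signals with no log2 beside them are the deposited, unscaled intensities. Without any scaling between arrays, the median tested probe lay 0.22 higher with MCC than with Hb and 0.27 higher with MCC than with gp250, and quantile normalization sets that shift aside. Small differences therefore hold relative to the array as a whole.

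The activator Nlrc5 was read above background only with MCC. Its deposited signal was 226 and 108 on the MCC arrays, against 2.26 and 8.21 on the gp250 arrays and 19.4 and 6.81 on the Hb arrays. Both MCC arrays lay above all others, the first of them the brighter, and no gp250 or Hb array passed detection. Because it was below background there, only a bound holds: Nlrc5 was at least 2.95-fold higher with MCC than with Hb, and at least 3.11-fold higher with MCC than with gp250. The bound sets the mean normalized MCC signal against the lowest signal detected on the dim arrays. It holds for that mean and not for each MCC array, since these lay at 7.74 and 6.80 (log2). The fit gave an adjusted p of 0.00129 against Hb and 0.0009005 against gp250. The probe entered the test through the MCC arrays alone, so a difference was built into its selection and these p-values are no support for it.

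The heavy chain genes H2-K1 and H2-D1 did not pass the test in any comparison. The H2-K1 probe read 457 and 438 with MCC, 377 and 371 with gp250, and 500 and 362 with Hb. The Hb arrays were the highest and the lowest of the 6, and every MCC and gp250 array lay between them. Its difference was -0.19 ± 0.15 with MCC against Hb (95% interval -0.55 to 0.17, adjusted p = 0.318), -0.06 ± 0.15 with MCC against gp250 and -0.13 ± 0.15 with gp250 against Hb. One Hb array decides its call, since without Hb replicate 2 the difference with MCC was -0.40 (adjusted p = 0.0481, range over all alternatives 0.0481 to 0.926), and without scaling between arrays it was 0.07. The H2-D1 probe lay at the edge of detection, at 28.9 on both MCC arrays, 27.4 and 34.2 with gp250, and 31.0 and 37.8 with Hb. Detection was passed only on 1 gp250 and 1 Hb array, so no fold is given (fitted difference with MCC against Hb -0.23 ± 0.10, adjusted p = 0.107). The H2-D1 probe thus entered the test without an MCC array. A lower MCC value was built into its selection, and its p-values are no support for a fall. Class I heavy chain genes are close copies of each other. How far a probe reads only its own gene, or the H-2d allele, was not tested.

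B2m, the light chain of every classical class I molecule, did not pass the test in any comparison by either tested probe. The brighter probe read 17567 and 14645 with MCC, 11363 and 11874 with gp250, and 13342 and 13202 with Hb. The other probe read 17669 and 13591 with MCC, 11254 and 12094 with gp250, and 12900 and 11440 with Hb. Before scaling both MCC arrays were the brightest by either probe. After scaling, the brighter probe averaged 13.77 ± 0.13 with MCC, 13.65 ± 0.01 with gp250 and 13.77 ± 0.01 with Hb (log2, SD, n = 2 each). MCC against Hb gave -0.00 ± 0.10 (95% interval -0.24 to 0.24, adjusted p = 0.983) and MCC against gp250 0.12 ± 0.10 (adjusted p = 0.347). The interval against Hb leaves room for a change of at most 1.18-fold either way. The scale matters here: without scaling between arrays the brighter probe was 0.47 higher with MCC than with gp250 (adjusted p = 0.0137, range over all alternatives 0.0137 to 0.872) and 0.27 higher than with Hb (adjusted p = 0.1004, range 0.1004 to 0.991).

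**Figure D2:**
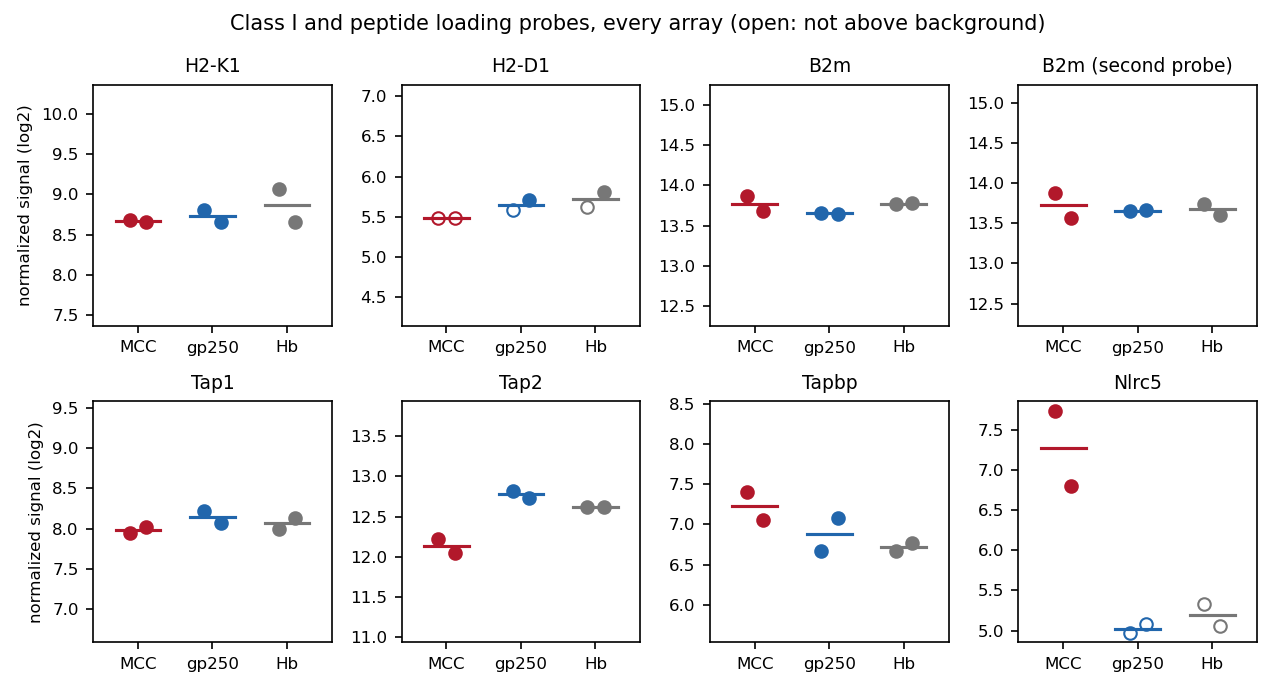
Normalized log2 signal of the 8 tested member probes on every array, in panels that each span 3 log2 units on their own baseline. Points are arrays (open where not above background), and lines are the means of the 2 arrays of a ligand. Nlrc5 stands apart with MCC and Tap2 lies lower with MCC, while H2-K1, B2m and Tap1 differ little between ligands.

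Of the transporter genes, Tap2 fell with MCC, and Tap1, which encodes the other chain of the same pump, did not pass the test. The Tap2 signal was 5918 and 4958 with MCC, 6103 and 6286 with gp250, and 5836 and 5580 with Hb. On this unscaled reading the first MCC array lay above both Hb arrays. Scaled, Tap2 averaged 12.14 ± 0.12 with MCC, 12.78 ± 0.07 with gp250 and 12.62 ± 0.00 with Hb (log2, SD, n = 2 each), and both MCC arrays lay below the other 4. The difference was -0.49 ± 0.10 with MCC against Hb, 1.40-fold lower (adjusted p = 0.006455), and -0.64 ± 0.10 with MCC against gp250, 1.56-fold lower (adjusted p = 0.00196). The fall is relative to the rest of the array: with a common median in place of quantiles it was -0.21 against Hb (adjusted p = 0.1945), and without scaling -0.07 (adjusted p = 0.642), in a range of 1.26e-05 to 0.642 over all alternatives. Against gp250 it was -0.37 with a common median (adjusted p = 0.0389) and -0.19 without scaling (adjusted p = 0.223), in a range of 5.89e-07 to 0.223. Tap1 read 269 and 277 with MCC, 249 and 242 with gp250, and 230 and 246 with Hb. Its scaled difference was -0.08 ± 0.10 with MCC against Hb (95% interval -0.33 to 0.17, adjusted p = 0.562) and -0.16 ± 0.10 with MCC against gp250 (adjusted p = 0.237), and it turned to 0.18 against Hb without scaling. The difference between Tap1 and Tap2 was not tested.

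Tapbp encodes tapasin, the bridge between TAP and the empty class I molecule. Its detected probe read 175 and 133 with MCC, 75.1 and 115 with gp250, and 83.6 and 88.5 with Hb. Both MCC arrays lay above both Hb arrays, and after scaling the second gp250 array overlapped the MCC arrays. Tapbp rose by 0.51 ± 0.18 with MCC against Hb, 1.42-fold (95% interval 0.08 to 0.94, adjusted p = 0.0477), and the difference with MCC against gp250 was 0.35 ± 0.18 (adjusted p = 0.136). The call is at the threshold. Without MCC replicate 1 the difference against Hb was 0.34 (adjusted p = 0.22), without Hb replicate 1 0.46 (adjusted p = 0.159) and without Hb replicate 2 0.56 (adjusted p = 0.103), in a range of 0.0128 to 0.22 over all alternatives. Without gp250 replicate 2 the difference against gp250 was 0.56 (adjusted p = 0.0466, range 0.0233 to 0.539).

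Erap1, the trimming peptidase, stayed below detection on all 6 arrays by both its probes. The first probe read 32.1 and 10.2 with MCC, -1.38 and -7.28 with gp250, and 1.41 and 9.12 with Hb. The second lay between -12.5 and -2.78 over all arrays. These signals are at background and hold no order.

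With MCC against Hb, 3 of the 8 tested member probes passed, 2 higher and 1 lower, in a comparison where 54.8% of all tested probes passed (26.6% higher and 28.2% lower). The median absolute difference of the 8 was 0.21, and that of all tested probes 0.41. Arrays of MCC and Hb did not overlap for 4 of the 8, and for 77.9% of all tested probes. With MCC against gp250, 2 of 8 passed, Nlrc5 higher and Tap2 lower, against 55.8% of all tested probes (27.1% higher and 28.6% lower), and 5 of 8 did not overlap, against 78.4%. The members' shares were above none of these backgrounds. Nlrc5 and H2-D1 are in both counts without overlap, and each entered the test only through arrays where it was brighter.

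With gp250 against Hb, 0 of the 8 member probes passed by limma, and 0% of all tested probes did. At an unadjusted p under 0.05, 0 of the 8 members and 782 of 11942 probes lay. Leaving out Nlrc5, below background with both, the member differences ran from -0.13 (H2-K1) to 0.16 (Tapbp), with standard errors of 0.10 to 0.18. Tap2 differed by 0.15 ± 0.10, with both gp250 arrays above both Hb arrays, and B2m by -0.12 ± 0.10, with both below, while the other B2m probe gave -0.01 ± 0.13 with overlapping arrays. Arrays did not overlap for 2 of 8 probes, and for 35.1% of all tested probes. The 95% interval was -0.36 to 0.12 for the brighter B2m probe and -0.27 to 0.59 for Tapbp. By mean level, Tap2 ran gp250, Hb, MCC, and the step between gp250 and Hb did not pass the test. Nlrc5 was above background with MCC only, and its gp250 and Hb signals hold no order.

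**Figure D3:**
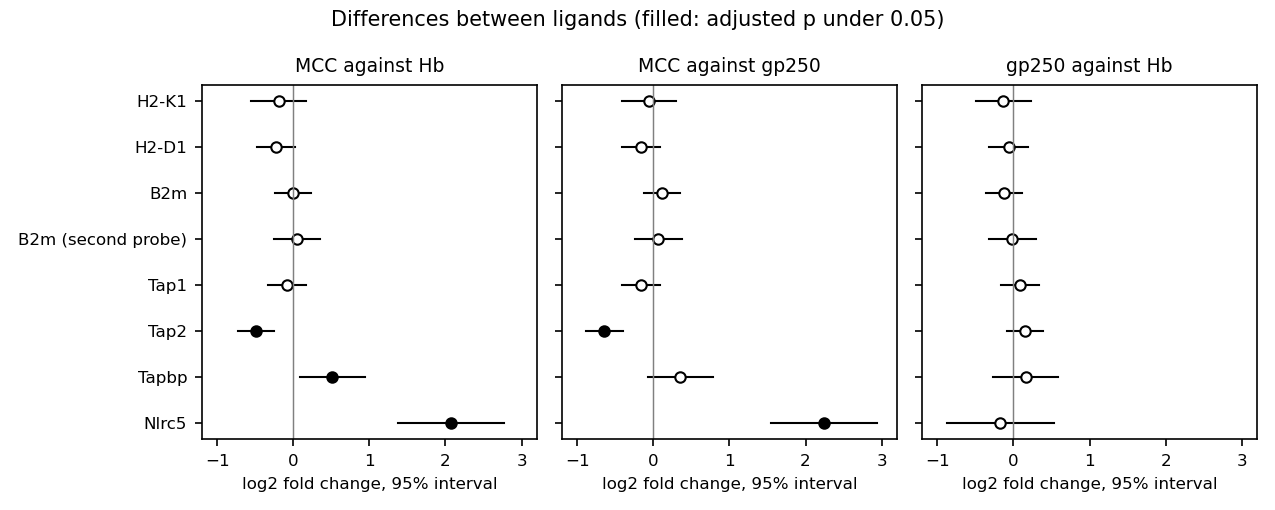
Log2 fold changes of the 8 tested member probes for MCC against Hb, MCC against gp250 and gp250 against Hb. Points are limma estimates, lines their 95% intervals, and filled points passed at an adjusted p under 0.05: 3 of 8, 2 of 8 and 0 of 8. The Nlrc5 points rest on arrays below background for gp250 and Hb and are not measured sizes. Nor are the H2-D1 points with MCC, since both MCC arrays were below background there.

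**Figure D4:**
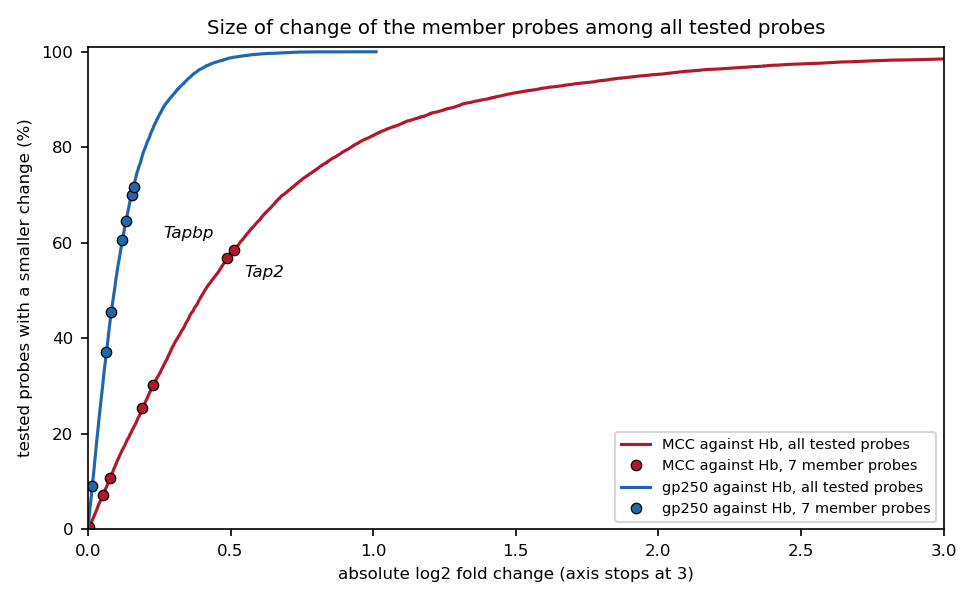
Share of all 11942 tested probes (%) with a smaller absolute log2 fold change, with 7 member probes marked, for MCC against Hb (red) and gp250 against Hb (blue). Nlrc5 is left out, since its change is only a bound. With MCC, Tapbp lies at 58.4% and Tap2 at 56.7%, with the other 5 at 30.1% or less. The red point at 30.1% is H2-D1, which was detected on no MCC array, and is not a measured size.

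The rest of the pathway was read with 1 probe per gene, and here 55.1% of all tested genes passed with MCC against Hb, 26.2% higher and 28.8% lower. With gp250 against Hb, no gene of any list passed. Most genes for proteins that fold and load class I in the endoplasmic reticulum rose with MCC: of 13 listed genes 12 were tested, 11 rose and 0 fell, with a median difference of 0.74 (all tested probes -0.03). Calr (calreticulin, which holds the monoglucosylated heavy chain) read 1316 and 1420 with MCC, against 156 and 194 with gp250 and 254 and 187 with Hb. Every MCC array was above every other, and Calr rose by 2.27 ± 0.15 against Hb, 4.81-fold (adjusted p = 5.085e-05). Pdia3, the thiol oxidoreductase bound to tapasin, read 11846 and 11373 with MCC, 3630 and 3899 with gp250, and 3817 and 3739 with Hb, a rise of 1.24 ± 0.08, 2.36-fold (adjusted p = 6.22e-05). Mogs, a glucosidase that trims N-glycans, rose by 1.38, and Hspa5, the general chaperone BiP, which was not detected with Hb, was at least 2.73-fold higher. These proteins serve most secreted and membrane proteins, not class I alone. Hspa5 was detected on 1 gp250 array and met the detection filter only with its MCC arrays counted. A difference was therefore built into its place among the 11 that rose. Tapbpl, the tapasin relative TAPBPR, chosen for mention after its values were seen, rose by 0.41 (adjusted p = 0.00799), while its dimmer probe gave 0.25 (adjusted p = 0.317). Of the genes that did not pass, named after their values were seen, Ganab, a further glucosidase subunit, was at 0.12, and Canx was not detected on any array.

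After quantile normalization, the constitutive catalytic proteasome subunits and the activators Psme2 and Psme3 rose with MCC. The catalytic subunits of the immunoproteasome did not pass the test there by their brightest probes. Of 10 tested genes 6 rose with MCC against Hb and 0 fell, with a median of 0.52. That count depends on the processing: 8 were called higher with a common median or an offset of 50, and 9 without scaling. That the immunoproteasome subunits did not pass therefore does not hold on every scale. The activators Psme2 (1.30) and Psme3 (1.30) and the assembly factor Pomp (1.31) rose. The constitutive catalytic subunit gene Psmb5 rose by 0.88 (adjusted p = 0.000345), and so did Psmb6 (0.59) and Psmb7 (0.46), which were chosen for mention after their values were seen. Of the interferon-inducible replacements of these subunits, Psmb8 was at 0.04 ± 0.10 (adjusted p = 0.781), Psmb9 at 0.05 ± 0.08 (adjusted p = 0.681) and Psmb10 at 0.40 ± 0.16 (adjusted p = 0.0763). Psmb8 read 1293 and 1118 with MCC, 910.2 and 926 with gp250, and 924 and 935 with Hb. Psme1, the partner of Psme2, was at 0.33 ± 0.14 (adjusted p = 0.0824). The dimmer probes of Psmb10 (0.37, adjusted p = 0.0217) and Psme1 (0.37, adjusted p = 0.0414) passed. Whether the constitutive and the replacing subunits differ in their change was not tested. In the RefSeq gene order of chromosome 17, Tap1 lies between Psmb9 and Psmb8, and Tap2 between Psmb8 and H2-Ob. Of Psmb9, Tap1, Psmb8 and Tap2, only Tap2 passed the test, on the scaled values.

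Cytosolic peptidases that cut peptides before transport were tested for 4 of 7 listed genes, and 3 rose with MCC. Thop1, thimet oligopeptidase, rose by 1.92 ± 0.17 (adjusted p = 0.000193), Blmh, bleomycin hydrolase, by 0.58, and Nrd1, nardilysin, by 0.45. The 1 gene that did not pass, Tpp2, which shortens long peptides, was at -0.17 and was named after its value was seen.

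Among other class I and class I-like heavy chains, 11 of 27 listed genes were tested, 0 rose and 4 fell with MCC against Hb, with a median of -0.19. Mr1, which presents vitamin B metabolites, read 39.6 and 54.6 with MCC, 102 and 153 with gp250, and 183 and 138 with Hb. It fell by 1.65 ± 0.19 on the log2 scale (adjusted p = 0.00056) and was detected on only 1 of the MCC arrays. Cd1d1, which presents lipids, read 807 and 797 with MCC, 1378 and 1453 with gp250, and 1697 and 1382 with Hb, and fell by 1.23 ± 0.11, 2.34-fold (adjusted p = 0.0001585). All MCC arrays lay below all others for both genes. Hfe, a regulator of iron uptake, fell by 0.75, and the Qa region gene H2-Q8 by 0.57. The 7 others, H2-M3 among them at 0.28 (adjusted p = 0.0837) and named for its promoter window after its value was seen, lay between -0.28 and 0.28.

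Of the factors known to act on class I promoters, 11 of 17 listed genes were tested. With MCC 2 rose, 5 fell and 4 did not pass, with a median of -0.28. Irf8, an interferon regulatory factor, rose by 1.26 ± 0.18 (adjusted p = 0.00149), and Rela, the NF-kappaB subunit p65, by 0.50 ± 0.11 (adjusted p = 0.0109). Rfxap, a subunit of RFX, fell by 0.63, and Ep300, a histone acetyltransferase, by 0.63. The falls were relative to the array: without scaling 0 of 11 were called lower, and with a common median 3. They also rest on single arrays, since 1 gene was called lower without MCC replicate 1 or without Hb replicate 1. Irf1 was at 0.21 ± 0.13 (adjusted p = 0.212) by its brightest probe, and of its 4 other tested probes 1 passed, at 0.47 (adjusted p = 0.0301). Rfx5 and Ciita were not detected on any array.

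The interferon list, 10 of 12 genes tested, had 2 higher and 4 lower with MCC, and a median of -0.35. Ifngr1, the ligand-binding chain of the interferon gamma receptor, read 1333 and 1241 with MCC, 4154 and 4473 with gp250, and 4656 and 4384 with Hb. It fell by 2.16 ± 0.08, 4.47-fold (adjusted p = 7.425e-06), and all MCC arrays lay below all others. Ifngr2, its signalling partner, fell by 1.17 by its brightest probe, and its other tested probes gave -1.39 and -2.06. Socs1, a feedback inhibitor of the pathway, fell by 0.78. Ifng itself, detected only with MCC at 47.7 on both arrays, was at least 1.12-fold higher than with Hb. It too entered the test through the MCC arrays alone, so a difference was built into its place among the 2 higher genes.

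Class II presentation genes, given for contrast, had 6 of 12 tested, of which 1 rose and 2 fell with MCC. H2-Oa, part of an inhibitor of class II loading, fell by 0.95, and H2-DMa, part of the loading catalyst, by 0.84. H2-Ab1, a class II beta chain, rose by 0.55 (adjusted p = 0.0117), a call lost without MCC replicate 2 or without Hb replicate 1. Of its dimmer probes, 1 passed at 0.43 (adjusted p = 0.0283) and 1 did not, at 0.29 (adjusted p = 0.147).

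**Figure D5:**
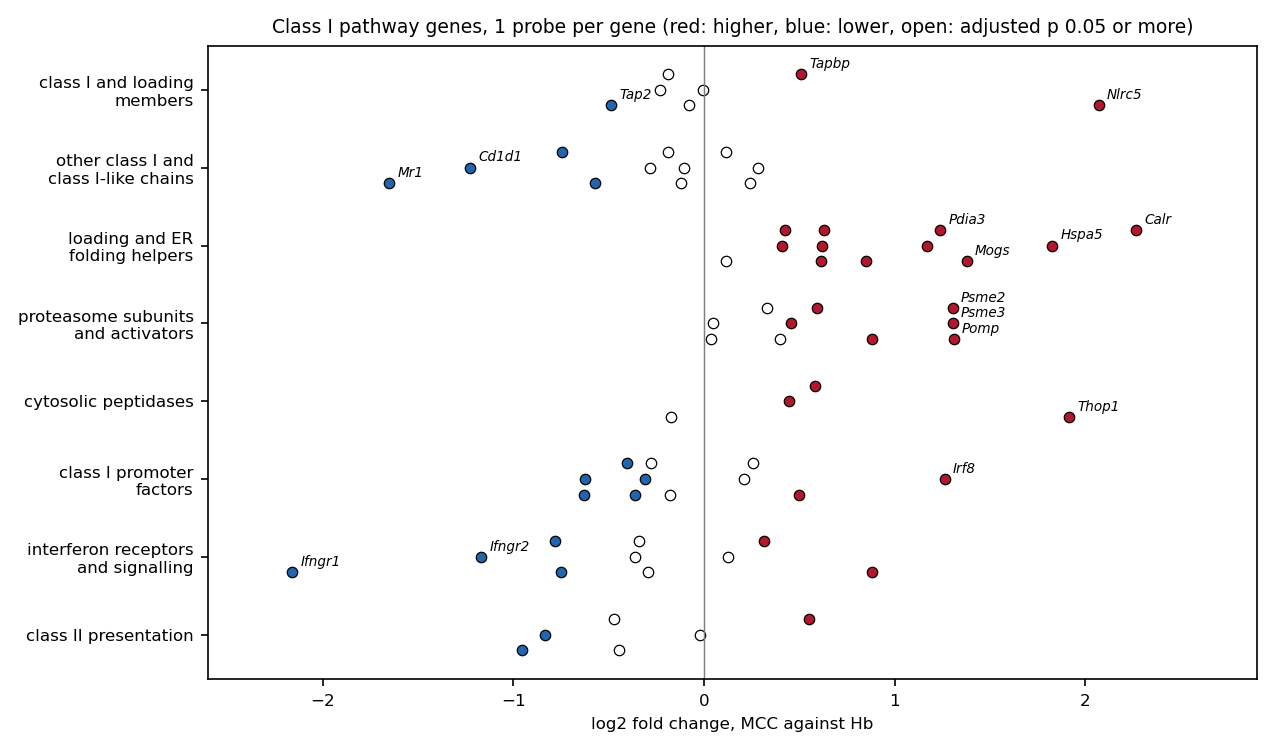
Log2 fold change with MCC against Hb for the tested genes of each list, 1 probe per gene, after quantile normalization. Red points rose, blue points fell and open points did not pass an adjusted p of 0.05; 11 of 12 loading and folding helpers lie in red, and 3 of the 7 members passed. The points of Nlrc5, Hspa5 and Ifng are set against Hb arrays below background and are not measured sizes. Nor are those of H2-D1 and H2-M2, which were detected on no MCC array.

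The genes most like each member that passed were found by the root mean square difference of mean-centred log2 signals over the 6 arrays, among 8253 genes. Tap2 was closest to Vps33a (0.03), Tmem106c (0.03) and Sppl2b (0.03). Tapbp was closest to Hoxb5 (0.04), Casp1 (0.05) and Klhl12 (0.06). Nlrc5, whose gp250 and Hb values are background, was closest to Hap1 (0.12), Ier5l (0.18) and Zbed5 (0.18). These likenesses rest on the same 6 arrays and mostly on the step between MCC and the other ligands.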

How the data were processed

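Per the file headers, the authors deposited 1 intensity, not normalized, and 1 detection p-value per probe and array. The intensity goes below 0, so a background had been subtracted. The authors' processed table, an intensity on a linear scale set to 1 mean for all arrays, served as an alternative. No source used here names the scanner software.

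Groups came from the sample labels. The platform annotation gives 1 symbol for 23978 of 25697 probes, several for 0 and none for 1719. limma 3.58.1 (R 4.3.3) ran neqc: normexp with controls inferred from detection p, an offset of 16, quantile normalization and log2, which pulls differences of dim probes towards 0. Probes detected (p under 0.05) on at least 2 of 6 arrays were fitted with 1 mean per ligand (lmFit, eBayes, 3 residual degrees of freedom) with Benjamini-Hochberg adjustment inside each of the 3 comparisons. A gene is its tested probe with the highest mean signal. Where neither array of a ligand detected a probe, its fold is a bound.

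The members, lists and tests were chosen with earlier results of these data known. Named were all members, up to 4 called genes with the largest change per list, Psmb8, Psmb9, Psmb10, Psme1, Psme2, Calr, Pdia3, Irf1, Rfx5 and Ciita, and the 3 nearest genes of each called member, besides genes the text marks as chosen after their values were seen. The marker lists served to check cell types. The fit was tested on simulated data. Alternatives covered background, offset, scaling, filter, fit, block and each array left out. Promoter windows are RefSeq's, on GRCm38.p6, matched by symbol for 6 of 8 members.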

Additional observations from a re-analysis of the deposited data

How the results depend on the processing

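Over 16 alternatives, 2 to 3 of the 8 member probes passed with MCC against Hb (3 as reported) and 0 with gp250 against Hb in each. With MCC against gp250, 2 passed as reported, 3 without gp250 replicate 2 (Tapbp added) and 4 without scaling between arrays (Nlrc5, Tapbp and both B2m probes). Nlrc5 passed under every alternative run, which says nothing about its stability, since it was selected through the MCC arrays alone. Leaving out each array gave Tap2 -0.57 to -0.41 against Hb and -0.72 to -0.56 against gp250. Besides the arrays named above, Tapbp missed the threshold against Hb with no background correction (adjusted p = 0.0589), the authors' table (0.0797), no filter (0.0861) and the replicate block (0.0707), in a range of 0.0128 to 0.22, and H2-D1 passed with the authors' table (-0.37, adjusted p = 0.0377, range 0.0377 to 0.651). The H2-D1 probe entered the test through gp250 and Hb arrays alone, so its pass with the authors' table is no support for a fall. No called value changed sign. Of 127 member values in each comparison, called and uncalled together, 10 changed sign with MCC against Hb, 6 with MCC against gp250 and 4 with gp250 against Hb. Of 64 pathway genes tested, 40 passed as reported, in a comparison where 55.1% of all tested genes passed. Over the alternatives that kept 2 arrays per ligand, pathway genes that passed ran from 38 to 43. Over the same alternatives, loading and folding helpers higher ran from 11 to 12 and proteasome genes higher from 6 to 9. Counts that moved by over 1.5 times were other class I genes higher (0, and 1 with either other scaling, an intensity trend or without MCC replicate 2), promoter factors higher (2, and 1 without MCC replicate 1 or Hb replicate 2) and lower (5, and 3 with a common median, 0 without scaling, 1 without MCC replicate 1 or Hb replicate 1), interferon genes higher (2, and 1 in 8 settings), class II genes higher (1, and 0 without MCC replicate 2 or Hb replicate 1) and lower (2, and 4 without Hb replicate 1). Over all probes the split with MCC against Hb was 3176 higher and 3369 lower, 3790 and 2638 with a common median, and 4674 and 2017 without scaling. With no filter 24.5% of 25697 probes passed. Same-numbered arrays did not deviate together after normalization (correlation -0.02 to 0.02). That cannot tell whether they came from the same mice or cells, and the labels leave it open. With the replicate block 6331 probes passed, 6545 without. With 2 arrays per ligand and dim H2-D1, Nlrc5 and Erap1 probes, small changes of these genes could not be seen.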
